A study of Mus musculus with 11 samples.

Results

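This account covers the mouse host genes of A375 tumours from mice treated with PLX4720, set against those of tumours from vehicle-treated mice. Its members are all genes whose detection p fell under 0.05 on any of the 3 PLX4720 and 3 vehicle arrays, which gave 10593 genes, of 10933 detected on any of the 11 arrays of the series and 19057 with a named probe on the array. The study asked how blocking mutant BRAF, blocking VEGF-A with bevacizumab, or both (COMBO), changes a tumour and the host tissue around it. A375 is an established human melanoma line with mutant BRAF, and PLX4720 is a small-molecule inhibitor of that kinase. CD1 athymic female mice received A375 cells under the skin of the flank at 6 weeks of age, and tumours grew to between 150 and 200 mm3 over about 20 days. Both groups were then gavaged for 12 days, the PLX4720 group daily with 60 mg/kg of the drug and the vehicle group with 1% methylcellulose. All hosts lacked thymus-derived T cells, so the immune genes below come from mice without a normal T cell compartment. Each array was hybridised with RNA of a whole tumour, which held human tumour cells beside mouse stroma in a proportion that the mouse arrays do not give. How much of a mouse probe's signal came from human RNA was not measured, so a host gene here is a gene with a probe on the mouse array.

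A xenograft draws its vessels, fibroblasts and leukocytes from the host. Oxygen-poor tumour regions stabilise hypoxia-inducible factors, which raise glucose transporters, glycolytic enzymes and VEGF-A, and VEGF-A in turn acts on receptors of the endothelium. Macrophages, natural killer cells and interferon-responsive cells make up much of the leukocyte signal of athymic mice, and fibroblasts lay down the collagens and proteoglycans of the matrix.

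With PLX4720, the arginase Arg1, the phosphatase Dusp4 and some endothelial and hypoxia-induced genes fell, and some clock, glucocorticoid-induced, interferon-stimulated and natural killer genes rose. The limma fit called 610 rises and 836 falls among the 10593 genes (adjusted p under 0.05), which is 5.76% and 7.89% of the genes tested, and these shares are the background for every count of list members below. The rises had a median log2 fold change of 1.13 and the falls one of -1.28, and 24 genes rose and 163 fell by 2 or more on the log2 scale. All log2 signals are normalised intensities, on which the median gene differed by 0.17 between the groups, so each list median is given beside that value as a description and not as a test. The arrays of the groups did not overlap in 607 of the 610 rises and 832 of the 836 falls, nor in 3766 of all 10593 genes. The threshold named in the methods needs a change of 1 or more on the log2 scale and an unadjusted p below 0.01, and with it 483 genes were higher and 698 lower.

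**Figure D1:**
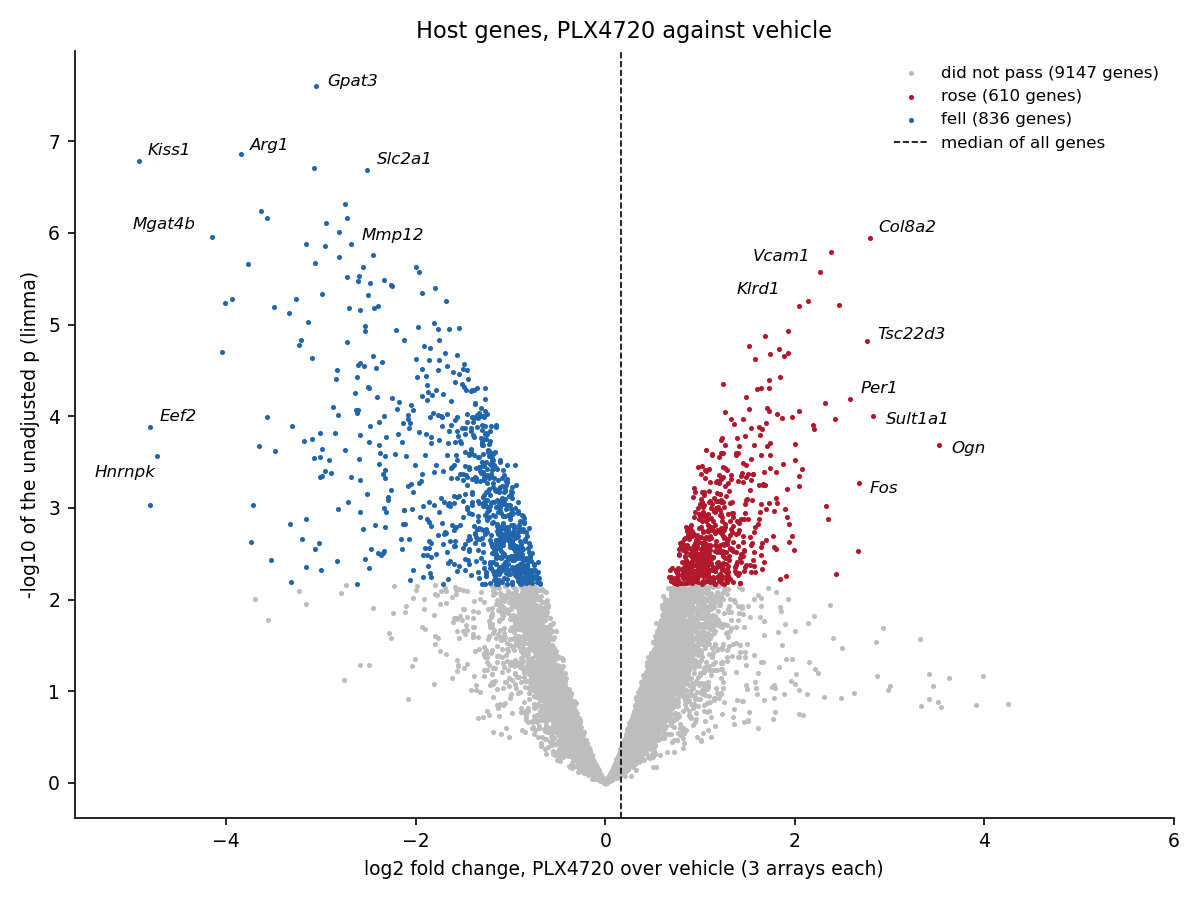
Each point is 1 of the 10593 genes, with the log2 fold change of PLX4720 over vehicle on the horizontal axis and the negative log10 of the unadjusted limma p on the vertical axis. The 610 genes that rose and the 836 that fell are coloured, and Kiss1 (-4.92) and Eef2 (-4.81) lie farthest to the left.

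The balance of rises and falls depended on how the arrays were put on a common scale. The PLX4720 arrays detected 13049 to 15130 probes each, and the vehicle arrays detected 10115 to 11322. Among tested genes, 597 passed detection throughout the PLX4720 group and nowhere in the vehicle group, while 33 did the opposite. Of the 597, 218 were called, and of the 33, 27 were. Genes named below with either pattern are to be read against these counts, since the pattern alone does not set a gene apart. Scaling on the median of the detected probes gave 1529 rises and 1306 falls, and scaling on 7 housekeeping genes gave 1392 rises and 506 falls. Scaling on the median of all probes, an alternative chosen after seeing the data, moved the median gene to 0.80 and gave 4808 rises and 210 falls. Under that scaling all 610 rises were again called, whereas 206 of the 836 falls were called and 828 of them lay below the median gene. List medians and counts of higher or lower means below are absolute. They are to be read against the median gene at 0.17, unless a distance from it is given. Over the scalings the absolute median of 23 of 55 lists changed sign. Among those described below, these were the endothelial, angiogenesis, pericyte, collagen, metalloproteinase, TGF-beta, neutrophil, mast cell, B cell, glycolysis, cholesterol, ERK, cell cycle and splicing factor lists and the genes that the study follows. The collagen, elastic fibre, B cell, mast cell, immediate early, translation factor and nerve lists also changed side of the median gene.

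Single arrays carried much of the significance. With all arrays there were 1446 calls. Omitting vehicle replicate 2 left 328, omitting vehicle replicate 3 left 602 and omitting PLX4720 replicate 1 left 677. Without vehicle replicate 1, 385 genes rose and 617 fell. In every one of the 11 fits that left 1 array out, 71 of the rises and 222 of the falls were called again, and these 293 genes are referred to as kept in all fits. Whether arrays of a group came from separate chips is not stated in the labels. The p-values rest on a spread within groups that is pooled over all 11 arrays of the series. A fit of only the 6 arrays gave 602 calls. Correlations over genes were 0.957 to 0.966 within vehicle, 0.883 to 0.914 within PLX4720 and 0.798 to 0.917 between the groups. The PLX4720 arrays thus differed more among themselves, and 325 of the 610 rises were highest on PLX4720 replicate 1 while 389 of the 836 falls were lowest there.

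PLX4720 replicate 1 carried a strong signal of skeletal muscle. Over 26 muscle genes the mean log2 signal was 5.57, 6.47 and 5.45 on the vehicle arrays and 11.12, 5.41 and 7.58 on PLX4720 replicates 1, 2 and 3. Replicate 1 stood alone, replicate 2 lay below all vehicle arrays and replicate 3 lay above them. The difference of 2.21 between the groups did not pass an exact permutation test (two-sided p = 0.4, where 3 against 3 arrays allow 0.1 at the smallest). Acta1, skeletal muscle actin, read 4.71, 9.52 and 4.90 with vehicle and 15.72, 4.73 and 11.43 with PLX4720 (adjusted p = 0.286 in limma). Ckm, muscle creatine kinase, was detected on no vehicle array (4.65, 4.87 and 4.81) and read 14.02, 4.78 and 7.51 with PLX4720 (adjusted p = 0.183). Of the 26 genes, 21 were highest on replicate 1, and 16 lay there at least 4 above the vehicle mean on the log2 scale, against 0 on replicate 2 and 2 on replicate 3. These 16 were among 44 genes of any kind that far above vehicle on replicate 1.

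Of the 26 muscle genes 3 passed the test, and they split. Tnnt1, slow troponin T, was at least 1.30-fold higher (adjusted p = 0.0463), whereas Tpm2 (-0.80, adjusted p = 0.0449) and Ttn, titin (-1.28, adjusted p = 0.00626), fell on the probe used, while the other probe of Tpm2 gave 2.51 and most other probes of Ttn were above 0. Over the 3 muscle genes detected on all 6 arrays the difference was -0.242. Adipocyte genes went the same way as muscle on replicates 1 and 3, with list means of 6.28, 6.25 and 5.70 in vehicle and 7.58, 6.28 and 7.06 in PLX4720. Among them Lpl, lipoprotein lipase, rose by 2.33 (adjusted p = 0.0184), and Adipoq, adiponectin, read 6.97, 5.45 and 4.90 against 10.26, 6.47 and 9.15 (adjusted p = 0.112). Without PLX4720 replicate 1, 174 of the 610 rises and 455 of the 836 falls were called again, and 602 and 836 of them kept their sign. With the muscle signal as a covariate the corresponding counts were 146 and 430, and all kept their sign. Omitting vehicle replicate 2 or 3 left fewer calls than omitting PLX4720 replicate 1. The part of muscle tissue in the other differences was not tested beyond these fits.

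**Figure D2:**
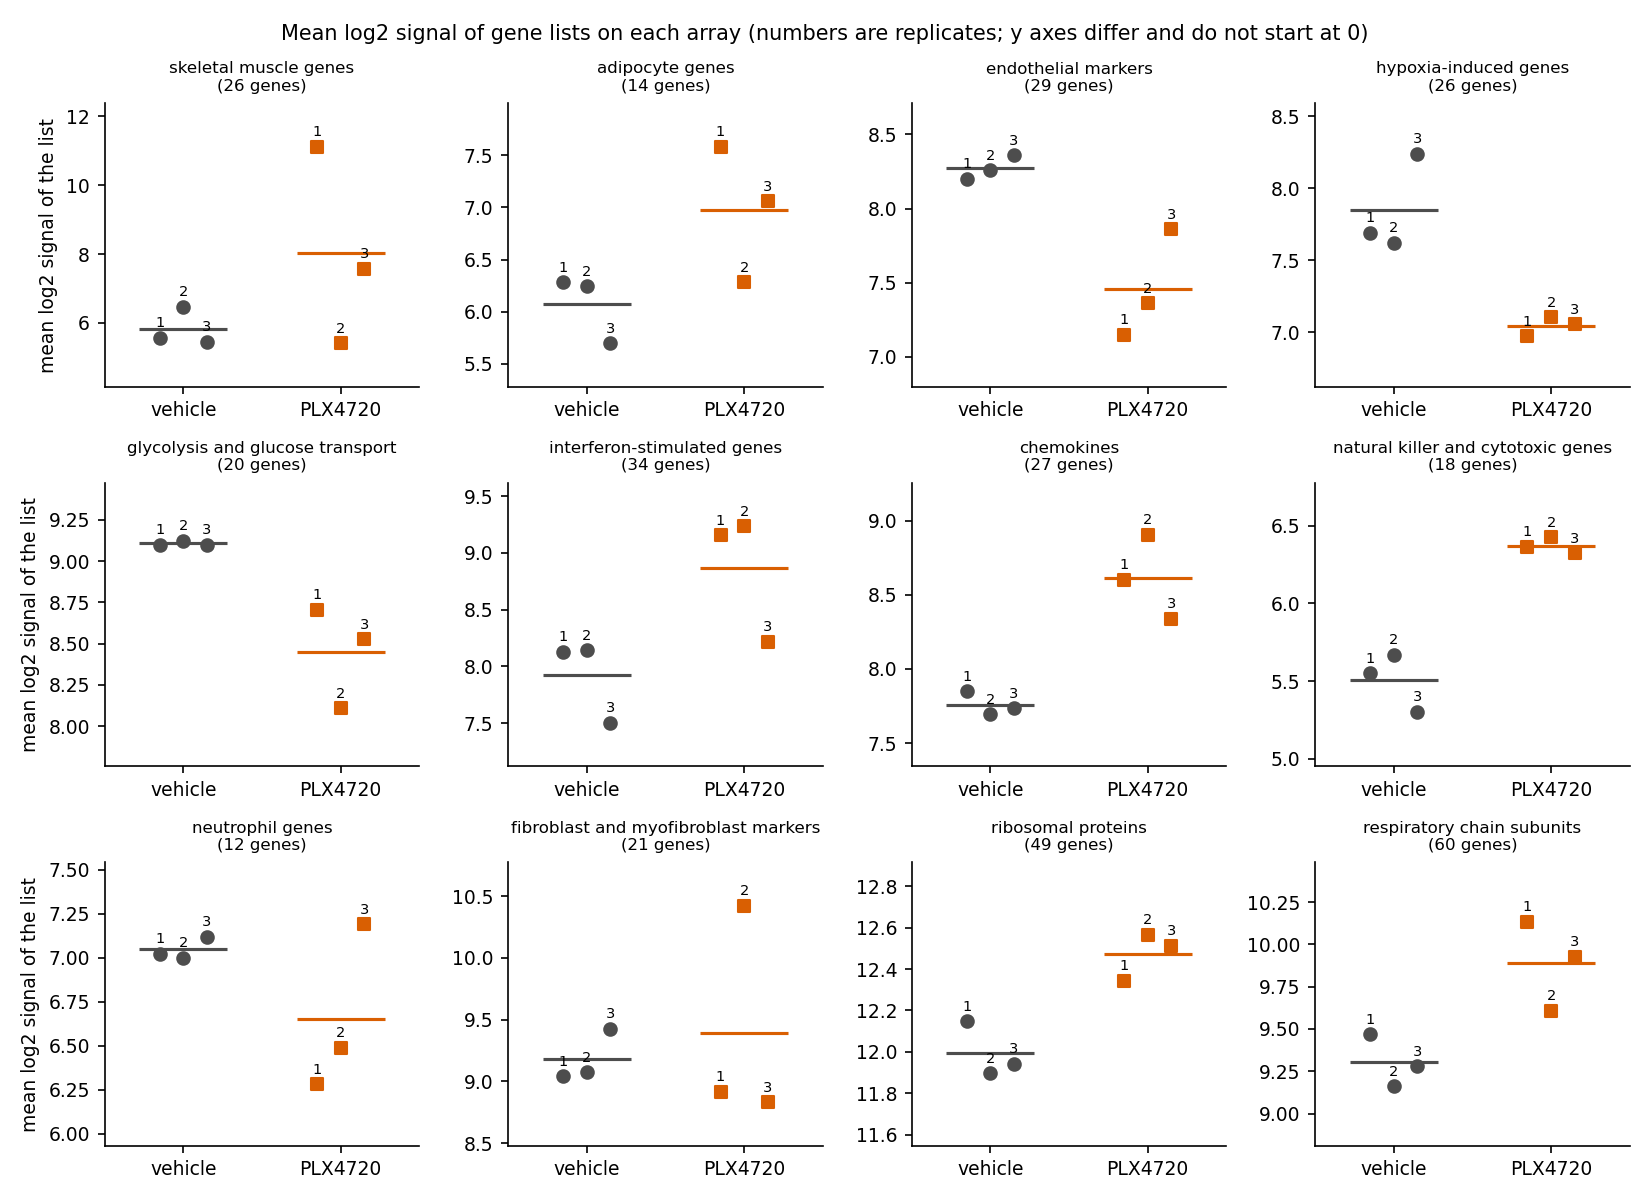
Mean log2 signal of each gene list on the 3 vehicle and the 3 PLX4720 arrays. The muscle list reaches 11.12 on PLX4720 replicate 1 and 5.41 on replicate 2, whereas the endothelial list lies between 7.15 and 7.86 on the PLX4720 arrays, under its vehicle range of 8.20 to 8.36.

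Probes of a gene often disagreed. Of the tested genes, 3611 had more than 1 detected probe, and the brightest stood for the gene. Among the 212 such genes that rose, every probe went up in 139 (65.6%), and among the 394 that fell, every probe went down in 150 (38.1%), against 53.3% with 1 common sign among genes that did not pass. The other probes of the genes that rose had a median log2 fold change of 0.40, and those of the genes that fell had one of 0.04. These other probes were dimmer, with median signals of 5.74 and 6.04, against 6.90 and 7.91 for the probes used. Every other probe also passed the test in 29 of the rises and 41 of the falls, and some probe passed in the opposite direction in 8 and 25.

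In some called genes the probes lay far apart. For Hnrnpa2b1, a protein that binds pre-mRNA, the probe used read 14.06, 14.27 and 14.28 with vehicle and 7.02, 12.90 and 8.27 with PLX4720, a fall of 4.80 (adjusted p = 0.0182), while its other probes gave 0.12 and 0.70. Prmt5, an arginine methyltransferase, read 10.46, 10.60 and 10.52 against 4.99, 8.15 and 7.73, while its other probes gave 0.92 and 0.48. On both probes PLX4720 replicate 2 was the nearest to vehicle, but the groups did not overlap. Tmub1 (-4.04), Ensa (-4.01) and Prpf3 (-3.26) each had a probe at 0.85, 0.56 and 1.02 in the same order, and Vars, the valyl-tRNA synthetase, rose by 1.68 with another probe at -2.64. For such genes the change belongs to a probe and is not settled for the gene.

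**Figure D3:**
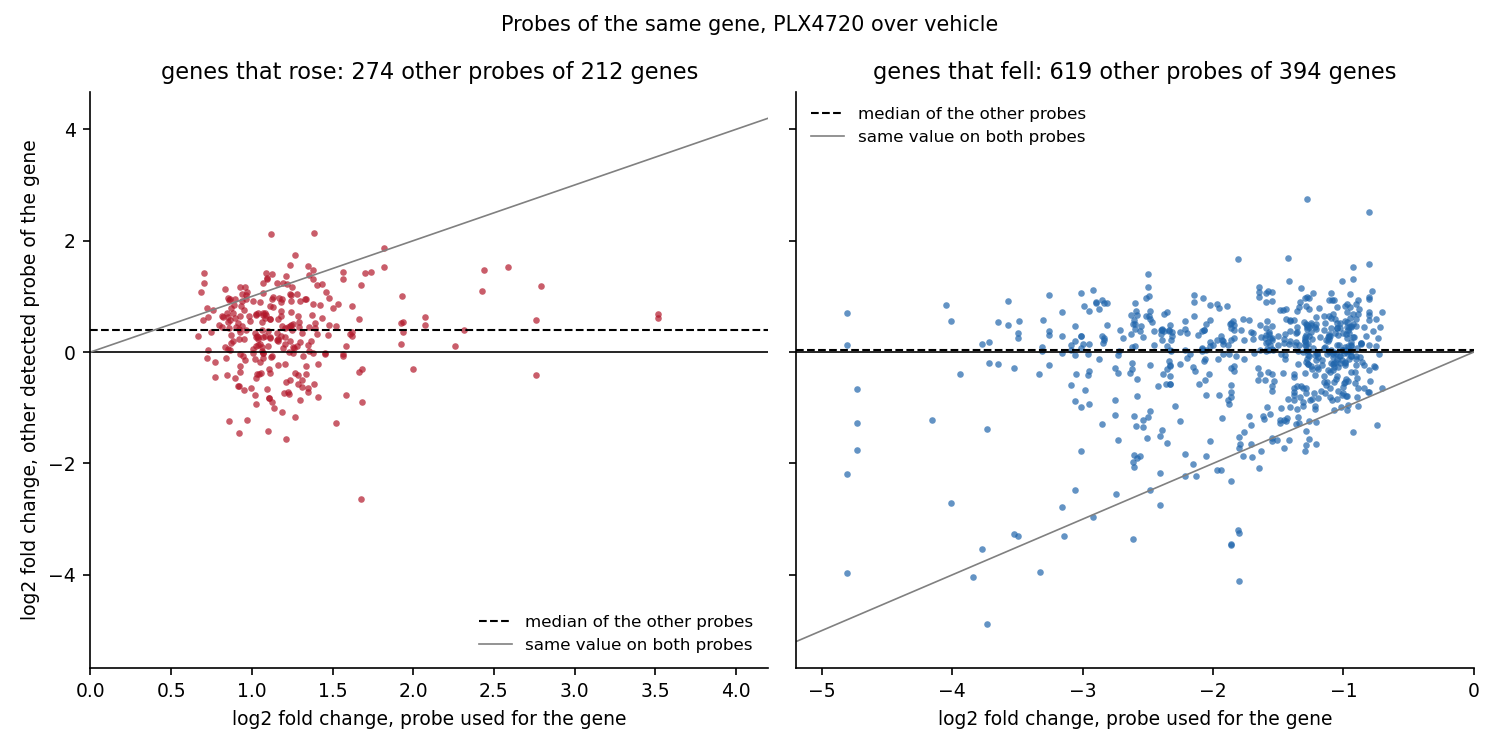
Log2 fold change of the probe used for each called gene with several detected probes (horizontal axis) against that of its other probes (vertical axis). Other probes of the rises scatter about a median of 0.40 and those of the falls about 0.04.

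Of 29 endothelial markers tested, 7 fell, 0 rose and 22 did not pass (24.1% fell, against 7.89% of all genes), and 25 had a lower mean. The list median was -0.83, and 0.99 below the median gene, a distance that ranged from -1.08 to -0.63 over the scalings, although the absolute median was 0.08 under all-probe median scaling. Emcn, the endothelial sialomucin endomucin, read 10.47, 10.50 and 10.23 with vehicle and 9.07, 8.66 and 9.35 with PLX4720, and it fell by 1.37 (SE 0.23, adjusted p = 0.00566). Kdr, the main signalling receptor for VEGF-A, read 6.83, 7.03 and 6.56 against 5.70, 5.61 and 5.65 and fell by 1.16 (SE 0.21, adjusted p = 0.00692). In both genes all PLX4720 arrays lay below all vehicle arrays, and both were kept in all fits. Flt1, the other VEGF-A receptor, was 9.60, 9.69 and 9.37 against 8.41, 8.44 and 8.22 and fell by 1.20 (adjusted p = 0.0109). Gpihbp1, the capillary protein that holds lipoprotein lipase, was 9.82, 9.91 and 9.27 against 5.47, 6.21 and 8.29, a change of -3.01 on this probe and -1.78 on the other. Its spread within PLX4720 was wide, and replicate 3 lay nearest to vehicle.

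Vwf, von Willebrand factor (-1.94), Plvap, a protein of endothelial fenestrae (-1.85), and Pecam1, the adhesion molecule CD31 (-1.23, other probe -0.73), also fell, with adjusted p between 0.0127 and 0.0426. Dropping vehicle replicate 2 left 2 endothelial falls, dropping vehicle replicate 3 left 4, and dropping PLX4720 replicate 3 gave 13. In whole-tumour RNA, fewer cells of a type and less RNA per cell cannot be told apart. Pericyte and smooth muscle markers did not move as a list (1 of 13 fell, median -0.08), and the exception was Cspg4, the pericyte proteoglycan NG2, at 8.11, 8.50 and 7.72 against 6.12, 6.54 and 7.0 (fell by 1.55, adjusted p = 0.0077).

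Of 26 ligands and receptors of angiogenesis 5 fell and 1 rose, with 12 higher and 14 lower means and a list median of -0.10, or 0.66 under all-probe median scaling. Vegfa, the mouse gene of VEGF-A, read 8.03, 7.67 and 9.59 with vehicle and 7.35, 6.56 and 6.01 with PLX4720, a fall of 1.79 (SE 0.48, adjusted p = 0.0337) with a second probe at -1.66. Angpt2, the angiopoietin that destabilises vessels, read 9.42, 9.78 and 10.50 against 7.81, 8.61 and 8.44 (fell by 1.61, adjusted p = 0.0113, second probe -1.20). Neither gene overlapped between groups, and of the pair only Angpt2 was kept in all fits. Pgf, placental growth factor, was detected on 2 vehicle arrays and 0 PLX4720 arrays (at least 1.84-fold lower, adjusted p = 0.0298), and Vegfc, a ligand of lymphatic vessels, fell by 1.02 (adjusted p = 0.0209). The rise was Cxcl12, a chemokine of stromal cells (7.15, 8.43 and 7.44 against 9.96, 8.92 and 9.20, adjusted p = 0.0138), but its other probes gave -0.31 and -0.89. The 5 falls were 3 without vehicle replicate 2 and 2 without vehicle replicate 3 or PLX4720 replicate 2.

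Of 26 genes induced by hypoxia, 9 fell, 0 rose and 17 did not pass, with a median of -0.69, which lay below the median gene by 0.49 to 0.88 across scalings. The count was 5 or 6 without any 1 of the vehicle arrays or PLX4720 replicates 1 and 2, and 8 without PLX4720 replicate 3. The called members span glucose uptake, hydroxylases, transcription and haem breakdown. The core of the site that hypoxia-inducible factors bind is ACGTG. It was sought on either strand from 250 bases before to 50 after each RefSeq transcript start. A window with it was found for 7 of 7 called genes with any window, 14 of 21 members with one, and 21.8% of 27025 mouse genes. A gene counted when the window of any of its transcripts matched, so a match need not lie in the main promoter. The stretch matched for Vegfa, which had 2 windows, reads as protein-coding sequence. The stretches around the first match are shown for 5 of the called genes because they carry the group's shared element. They are from RefSeq on GRCm38.p6, 5′ to 3′ on the gene's strand, with the match in capitals (CACGT is ACGTG read on the other strand). The capitals are letters found in a window and were not shown here to be bound.
Slc2a1 (chr4:119108679-119108743, plus strand, match at -36 from the start): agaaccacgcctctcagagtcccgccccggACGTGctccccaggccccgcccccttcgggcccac
P4ha1 (chr10:59323250-59323314, plus strand, match at -16 from the start): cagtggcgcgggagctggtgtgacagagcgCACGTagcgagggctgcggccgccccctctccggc
Mxi1 (chr19:53329317-53329381, plus strand, match at -66 from the start): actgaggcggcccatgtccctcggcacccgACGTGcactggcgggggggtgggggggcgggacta
Egln3 (chr12:54204069-54204124, minus strand, match at -229 from the start): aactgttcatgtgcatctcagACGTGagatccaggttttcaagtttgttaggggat
Ankrd37 (chr8:46000057-46000100, minus strand, match at -241 from the start): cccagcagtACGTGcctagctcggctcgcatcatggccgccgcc

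Slc2a1, the glucose transporter GLUT1, was the steadiest of them at 10.35, 10.65 and 10.99 with vehicle and 7.97, 8.25 and 8.22 with PLX4720. It fell by 2.52 (SE 0.24, adjusted p = 0.000441) and was kept in all fits. P4ha1, a catalytic subunit of the collagen prolyl hydroxylase, read 9.61, 9.61 and 10.34 against 7.24, 8.02 and 7.12 (fell by 2.39, adjusted p = 0.0015), but its other probe gave 0.22. Egln3, an oxygen-sensing hydroxylase that is itself a hypoxia target, read 7.69, 7.36 and 9.11 against 5.61, 5.05 and 5.57, and Mxi1, an antagonist of MYC, read 10.34, 10.56 and 10.52 against 8.51, 9.10 and 8.23. Both fell (-2.64 and -1.86), with every PLX4720 array under every vehicle array, though a second probe of Egln3 gave -0.37. Ankrd37 was detected on 2 vehicle and 0 PLX4720 arrays (at least 3.17-fold lower, adjusted p = 0.0312). Ndrg1 (-1.64, other probe -1.78), P4ha2 (-1.62, other probe -1.14) and Hmox1, haem oxygenase (-1.16), also fell, and Vegfa, described above, was the ninth.

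Outside the list, Hilpda, a lipid droplet protein induced by hypoxia, was 10.20, 9.86 and 10.68 against 7.24, 7.62 and 8.06 and fell by 2.61 (SE 0.32, adjusted p = 0.00122), with -1.98 on its other probe. Stc1, stanniocalcin, was 8.84, 8.91 and 9.11 against 7.46, 7.23 and 7.14 and fell by 1.67 (adjusted p = 0.00626). Both were chosen after their values were seen and were kept in all fits. Glycolysis and glucose transport lost 6 of 20 genes and gained 0, at a median of -0.58, below the median gene under every scaling. The absolute median of this list was 0.05 under all-probe median scaling. Pgam1, a phosphoglycerate mutase, read 9.24, 8.83 and 9.17 against 7.36, 7.82 and 8.06 (fell by 1.33, adjusted p = 0.00983). Pfkp, a phosphofructokinase, fell by 3.33 with replicates far apart (11.79, 12.27 and 12.34 against 6.39, 9.02 and 11.01). Slc2a3, Eno2 and Pgk1 fell (-1.23, -1.33 and -1.09). The count of falls was 3 without vehicle replicate 2 and 3 without vehicle replicate 3. Of 14 genes of cholesterol and fatty acid synthesis 3 fell, namely Cyp51 (10.31, 10.87 and 10.87 against 8.02, 8.73 and 7.96), Sqle and Lss (-2.45, -1.35 and -1.31), and 0 rose.

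Among genes that report on ERK signalling, 2 of 20 fell and 0 rose, and the list median was 0.01. Dusp4, a nuclear phosphatase that switches off ERK, read 9.73, 10.51 and 9.69 with vehicle and 6.92, 7.64 and 7.13 with PLX4720. It fell by 2.75 (SE 0.28, adjusted p = 0.000817), and its other probes gave -1.13, -0.86 and -0.28. Etv1, an ETS transcription factor, read 8.82, 9.41 and 8.82 against 5.97, 6.83 and 6.57 and fell by 2.56 (adjusted p = 0.00109), and its other probes gave 0.38 and -1.87. Both were called in every fit that left out 1 array. Of the immediate early genes, Fos rose from 8.55, 8.14 and 7.19 to 10.30, 11.89 and 9.73 (2.68, adjusted p = 0.0135), Zfp36 rose by 0.96 and Jun fell by 0.89 (adjusted p = 0.0497), while the list of 21 had a median of 0.14. Without vehicle replicate 2 or 3, 0 genes of that list rose, and without PLX4720 replicate 1, 1 did.

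The largest fall of any gene was that of Kiss1, the precursor of the kisspeptins. It read 9.56, 9.29 and 11.44 with vehicle and was detected on 0 of 3 PLX4720 arrays (4.94, 5.25 and 5.33), at least 24.5-fold lower (adjusted p = 0.000441). Arg1, the arginase of alternatively activated macrophages, read 11.68, 12.01 and 11.97 against 7.63, 8.93 and 7.58. It fell by 3.84 (SE 0.35, adjusted p = 0.000441), and its other probe gave -4.03. Gpat3, an acyltransferase of triglyceride synthesis, had the smallest adjusted p of all genes at 0.000261 (8.34, 8.92 and 9.0 against 5.48, 5.83 and 5.81), but its other probe gave -0.39. Nrn1, neuritin, fell by 3.64 (10.57, 11.16 and 11.52 against 6.69, 7.61 and 8.04, adjusted p = 0.000817). Inhba, the subunit of activin A, read 8.54, 9.35 and 10.19 against 6.04, 6.67 and 6.88 and fell by 2.83 (adjusted p = 0.00626). Clcf1, a cytokine of the interleukin 6 family, fell by 2.60, with -1.85 and -2.06 on its other probes. The groups did not overlap in any of these genes, and all were kept in all fits.

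**Figure D4:**
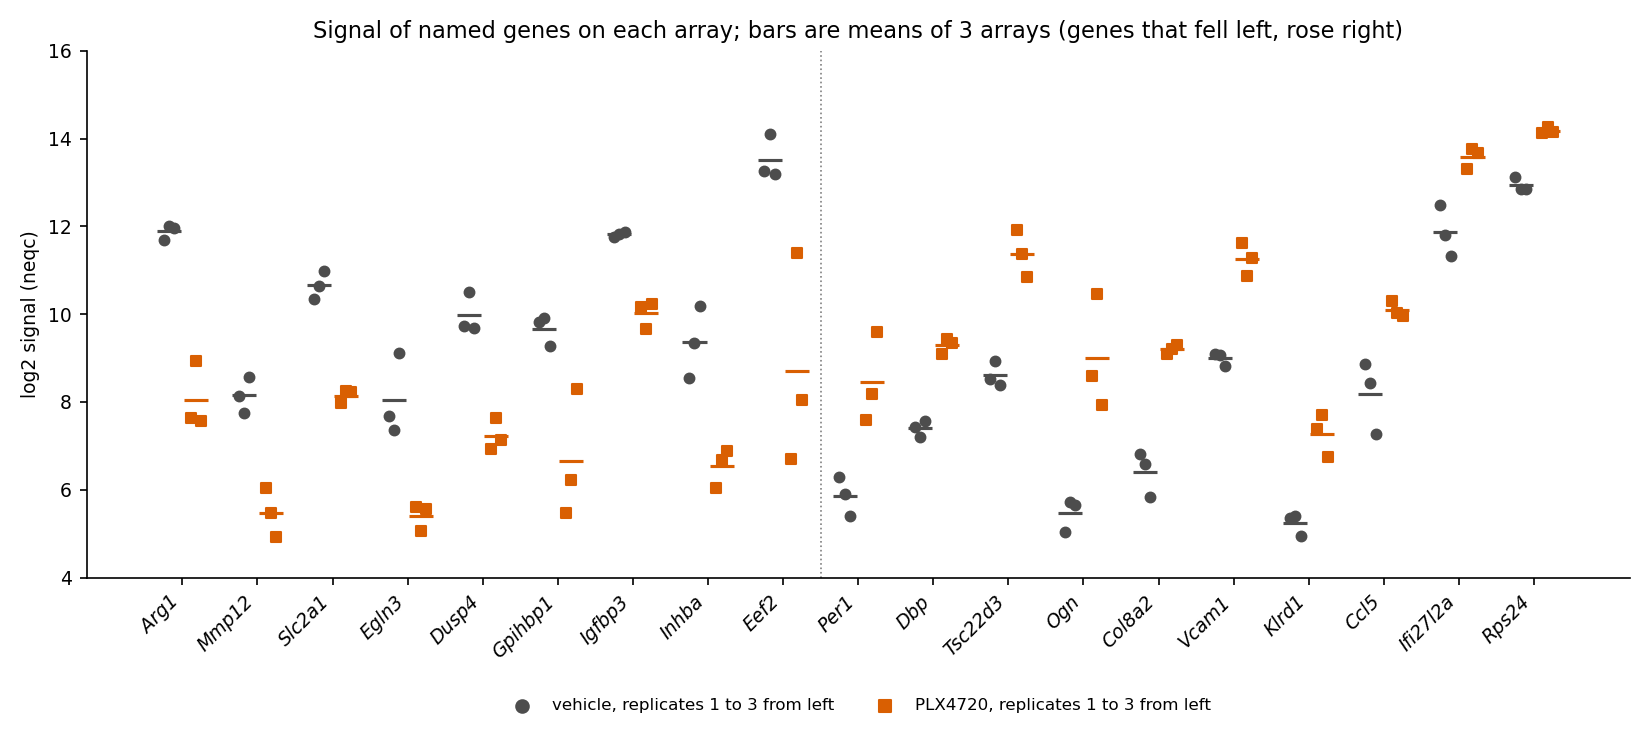
Log2 signal of named genes on each array, with vehicle and PLX4720 arrays as separate points. Slc2a1 and Arg1 show tight groups that do not overlap, whereas Eef2 spans from 6.69 to 11.39 within PLX4720.

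The matrix changed in particular genes and not as a whole. Fibroblast and myofibroblast markers gave 0 rises and 0 falls among 21 at an adjusted p under 0.05, with a median of 0.36, and Col1a1, the main collagen of stroma, read 10.81, 11.27 and 11.71 against 10.73, 12.11 and 11.49 (adjusted p = 0.788). One of the 14 collagens rose, Col8a2, a short-chain collagen of basement membranes, from 6.81, 6.60 and 5.82 to 9.10, 9.20 and 9.31 (2.79, SE 0.31, adjusted p = 0.000909, other probe 1.18). Of 13 small leucine-rich proteoglycans on the array 7 were tested. All 7 had a higher mean and 2 rose, which became 1 without vehicle replicate 2, vehicle replicate 3 or PLX4720 replicate 1. Ogn, osteoglycin, was detected on no vehicle array (5.04, 5.73 and 5.65) and on all PLX4720 arrays (8.58, 10.47 and 7.92), at least 8.34-fold higher (adjusted p = 0.00848), while its other probes gave 0.68 and 0.61. Podn, podocan, was at least 1.17-fold higher. On the probe used, Ogn, Podn and the uncalled Fmod were detected on no vehicle array. They entered the test only through PLX4720 arrays, so the detection filter favoured a higher mean for them. Dcn, decorin, read 11.17, 11.04 and 11.99 against 12.05, 14.30 and 11.60 and overlapped. Mgp, matrix Gla protein, an inhibitor of calcification, was 9.28, 9.78 and 9.07 against 11.34, 12.45 and 11.76 and rose by 2.47 (SE 0.32, adjusted p = 0.0015).

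Elastic fibre genes followed in part, since Eln, elastin (1.94), Ltbp4 (1.27) and Ltbp3 (0.97), which tether latent TGF-beta to the matrix, rose, although the other probes of Ltbp4 gave 1.75 and -1.17 and that of Ltbp3 gave -1.22. These 3 rises among 23 matricellular and elastic fibre genes were 0 without vehicle replicate 2 or PLX4720 replicate 2, and 1 without vehicle replicate 1 or 3 or PLX4720 replicate 3. Svep1, a large secreted matrix protein, was detected on 0 vehicle and 3 PLX4720 arrays, at least 2.52-fold higher (adjusted p = 0.00297). Among proteases and their inhibitors 4 of 17 fell and 0 rose, at a median of -0.32, or 0.46 under all-probe median scaling, and median scaling called 3 rises and 3 falls. Mmp10, stromelysin-2, read 7.37, 7.99 and 9.10 with vehicle and was detected on no PLX4720 array (5.39, 5.27 and 4.83), at least 6.39-fold lower (adjusted p = 0.0014). Mmp12, macrophage elastase, read 8.14, 7.75 and 8.57 against 6.04, 5.46 and 4.93 and fell by 2.68 (adjusted p = 0.000909). Both were kept in all fits. Adamts4 and Plau, the urokinase, fell (-1.43 and -1.27), the latter at an adjusted p of 0.0499. The count of falls was 2 without vehicle replicate 1, vehicle replicate 3 or PLX4720 replicate 1. Timp1, an inhibitor of these enzymes, differed by 0.04 (adjusted p = 0.952). Of the TGF-beta and activin pathway, 2 of 20 fell (Inhba and Acvr1) and 2 rose (Smad2 and Tgfbr2), and the other probe of Tgfbr2 gave -0.90. Dropping any 1 of vehicle replicates 2 and 3 and PLX4720 replicates 1 and 2 left 0 of its rises, and 1 fell without any 1 vehicle array or PLX4720 replicate 1.

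Of 22 macrophage markers, 4 rose, 0 fell and 17 had a higher mean (18.2% rose, against 5.76% of all genes), at a median of 0.61. The 4 were 0 without PLX4720 replicate 1, vehicle replicate 2 or vehicle replicate 3, 1 without PLX4720 replicate 3 and 2 without vehicle replicate 1. Mrc1, the mannose receptor, read 10.10, 9.89 and 10.41 with vehicle and 11.87, 10.65 and 11.61 with PLX4720 (rose by 1.24, adjusted p = 0.0323). C1qb, a chain of complement C1q, and Lyz1, lysozyme, rose by 0.97 and 0.93, and the other probes of Lyz1 gave -0.36 and 0.37. Tyrobp, a signalling adaptor, rose by 1.29 with groups that overlapped. Adgre1, a surface receptor typical of mouse macrophages, read 10.68, 10.20 and 10.28 against 11.28, 10.78 and 11.22 (0.70, adjusted p = 0.104).

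Genes of alternative activation gave calls in both directions. Of 21 tested, Arg1 and Mmp12 fell, 4 rose and 17 had a higher mean, at a median of 0.85. Ccl17, a chemokine that draws lymphocytes, was detected on 0 vehicle arrays (4.90, 4.97 and 4.64) and on 3 PLX4720 arrays (6.93, 6.58 and 6.20), at least 1.56-fold higher (adjusted p = 0.00299). Stab1, a scavenger receptor, read 7.89, 7.80 and 8.11 against 10.08, 9.73 and 9.0 (rose by 1.66, adjusted p = 0.0138), and its other probes gave -0.35 and 0.60. Clec7a, the beta-glucan receptor dectin-1, and Mrc1 made up the rest. Counts of the rises ran from 1 without vehicle replicate 2 to 7 without PLX4720 replicate 3, whereas the pair of falls was called in all 6 fits without 1 of these arrays.

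Sensors and mediators of innate immunity gave 5 rises and 2 falls among 30. Il18, an inflammasome cytokine, read 6.09, 5.84 and 5.62 against 7.67, 7.47 and 6.82 (1.47, adjusted p = 0.00763), and its processing protease Casp1 read 9.25, 9.25 and 8.99 against 10.14, 10.66 and 10.36 (1.23, adjusted p = 0.00806). Tlr2, a receptor for bacterial lipoproteins, rose by 1.24 (9.26, 9.11 and 8.87 against 10.40, 10.12 and 10.44). Il1rn, the interleukin 1 receptor antagonist, fell from 7.99, 8.81 and 8.01 to 5.18, 6.80 and 5.33 (2.50 lower, adjusted p = 0.0046, other probe -1.16), and Il18bp, which binds and blocks interleukin 18, fell from 8.33, 8.88 and 8.22 to 7.16, 7.28 and 7.31. Il18 and Casp1 were higher and both secreted antagonists lower on every PLX4720 array. Il18, Casp1, Tlr2 and Il18bp were kept in all fits, and Il1rn was as well. Tlr7 rose by 1.49 and Tlr5 rose from below detection on every vehicle array (adjusted p = 0.0154). The 5 rises were 3 without vehicle replicate 2 or 3. Nlrc4, an inflammasome sensor outside the list, showed no detection with vehicle (at least 1.43-fold higher, adjusted p = 0.00681).

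All 34 interferon-stimulated genes tested had a higher mean with PLX4720, at a median of 0.96, which was 0.53 to 1.08 above the median gene across scalings. The test passed 5 of them, or 14.7% against a background of 5.76%. Ifi27l2a read 12.49, 11.81 and 11.34 against 13.31, 13.77 and 13.68 (rose by 1.71, SE 0.32, adjusted p = 0.00863) and was kept in all fits. Irf7, the transcription factor of the type I interferon response, read 8.13, 7.77 and 6.02 against 9.48, 8.93 and 8.93 (1.81, adjusted p = 0.0315). Mx2, Usp18 and Irgm1 rose by 1.65, 1.29 and 1.18. The other probe of Usp18 gave -0.57, and those of Irgm1 gave 0.89 and 0.29. The list mean was 8.13, 8.14 and 7.50 with vehicle and 9.16, 9.24 and 8.22 with PLX4720, so PLX4720 replicate 3 lay nearest to vehicle. Without PLX4720 replicate 3, 14 genes rose, and without PLX4720 replicate 1, vehicle replicate 2 or vehicle replicate 3, 1 did. Without vehicle replicate 1 or PLX4720 replicate 2, 2 did. The element of such genes is TTTC, any 2 bases and TTTC, on either strand. It was found in 14 of 24 members with a RefSeq window, against 3.99% of all genes. Of 2 called members 1 had it, shown here because its window holds overlapping copies (capitals).
Irgm1 (chr11:48871411-48871480, minus strand, match at -30 from the start): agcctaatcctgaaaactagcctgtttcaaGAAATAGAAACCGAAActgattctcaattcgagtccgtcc

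Of 19 genes of MHC class I and the immunoproteasome 5 rose and 0 fell (median 0.70). Nlrc5, the transactivator of class I genes, read 5.27, 6.22 and 5.90 against 8.49, 7.20 and 7.03 (1.77, adjusted p = 0.0272), and Psmb10, an immunoproteasome subunit, read 9.44, 8.86 and 8.58 against 10.50, 10.09 and 10.49 (1.40, adjusted p = 0.00962, other probe 1.20). B2m, the light chain of class I, rose by 0.94 (other probe 1.04), Tap1, the peptide transporter, by 1.09 and Psme1, a proteasome activator, by 1.19. Dropping vehicle replicate 2 left 0 of these calls, dropping vehicle replicate 3 left 1 and dropping PLX4720 replicate 1 left 2. Of 22 class II and dendritic cell genes 3 rose and 1 fell, and Cd74, the class II invariant chain, read 12.43, 12.39 and 10.87 against 13.82, 13.95 and 12.61 (1.57, adjusted p = 0.0394). Cd83 and Cd86, molecules of mature antigen-presenting cells, rose by 1.68 and 1.38, and Cd80 fell by 1.03. Other probes gave 1.44 and -0.08 for Cd74, -0.02 and 1.48 for Cd86, and -0.07 for Cd80. Without vehicle replicate 2, 0 class II or dendritic genes rose, without vehicle replicate 3 or PLX4720 replicates 1 or 2, 1 did, and without PLX4720 replicate 3, 6 did.

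Of 27 chemokines 5 rose, 0 fell and 24 had a higher mean. Ccl5, a chemokine for lymphocytes, read 8.88, 8.43 and 7.27 against 10.30, 10.02 and 9.95 (1.90, adjusted p = 0.0191), Ccl8 read 12.29, 11.26 and 11.50 against 12.82, 13.23 and 13.61 (1.54, adjusted p = 0.0131), and Cx3cl1, a membrane-bound chemokine of endothelium, rose by 2.35 (adjusted p = 0.0221). Counts of rises ran from 1 without vehicle replicate 3 and 2 without vehicle replicate 2 to 8 without PLX4720 replicate 3. Of 18 natural killer and cytotoxic genes 5 rose, 0 fell and 17 had a higher mean. Among the rises, Klrd1, Sh2d2a and Klre1 were detected on no vehicle array. They entered the test only through PLX4720 arrays, so the detection filter favoured a rise for them. Klrd1, the CD94 receptor chain, was detected on 0 vehicle arrays (5.36, 5.40 and 4.94) and 3 PLX4720 arrays (7.38, 7.70 and 6.75), at least 2.54-fold higher (adjusted p = 0.0015). Sh2d2a, a lymphocyte adaptor, was at least 2.04-fold higher, and Ctsw, a protease of cytotoxic cells, rose by 1.64. Klre1, a lectin-like receptor, also rose, from below detection on every vehicle array (adjusted p = 0.0394). Dropping vehicle replicate 2 left 1 of these calls, dropping vehicle replicate 3 left 2 and dropping PLX4720 replicate 1 left 3. Outside the list, and chosen after their values were seen, Cd69, an early activation marker, Lag3, an inhibitory receptor, and Klra9, a Ly49 receptor, were detected on 0 vehicle and 3 PLX4720 arrays and were at least 2.72-, 2.50- and 1.81-fold higher, and these 3, with Klrd1, were kept in all fits. One other probe of Cd69 gave -0.30.

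T cell genes gave 0 rises and 0 falls among 11 in limma at an adjusted p under 0.05. Cd3d, a chain of the T cell receptor complex, was detected on 1 of the 6 arrays, PLX4720 replicate 3 (7.04). Neutrophil genes also gave 0 calls among 12, at a median of -0.43, and S100a8 read 10.45, 10.22 and 10.32 against 8.03, 8.67 and 10.48 (adjusted p = 0.139), with replicate 3 at the vehicle level. Mast cell (11), globin (5) and nerve (7) genes gave 0 calls. Of 5 B cell genes Cd22 rose, and of 6 keratinocyte genes Sbsn and Cdh1 fell. Vcam1, the adhesion molecule by which leukocytes bind endothelium, rose from 9.10, 9.06 and 8.81 to 11.62, 10.86 and 11.27 (2.26, SE 0.27, adjusted p = 0.00114), though its other probe gave 0.12. Complement gave 4 rises (C6, C4b, C4a and C1qb) and 1 fall (Cd93, a C1q receptor of endothelium) among 16. The other probes of C4b gave -0.31 and -0.82, that of C6 gave 0.35 and that of C4a gave 1.42. Dropping vehicle replicate 2 left 0 of the rises, dropping vehicle replicate 3 left 1 and dropping PLX4720 replicate 1 left 2.

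Clock and glucocorticoid-responsive genes held several of the largest rises. Of 13 clock genes 4 rose and 1 fell, at a median of 0.39. Per1, a repressor of the core clock, read 6.28, 5.91 and 5.41 with vehicle and 7.59, 8.18 and 9.59 with PLX4720, and it rose by 2.58 (SE 0.43, adjusted p = 0.00527) with 1.53 on its other probe. Nr1d2, the nuclear receptor REV-ERB beta, was detected on no vehicle array (4.95, 4.93 and 4.86) and on all PLX4720 arrays (7.44, 7.14 and 6.58), at least 2.17-fold higher (adjusted p = 0.00147). Dbp, a clock-driven transcription factor, read 7.43, 7.21 and 7.57 against 9.09, 9.44 and 9.34 and rose by 1.89 (SE 0.28, adjusted p = 0.00303). These 3 were kept in all fits. Per2 was at least 2.04-fold higher with other probes at -0.58 and 2.13, and Hlf, a relative of Dbp, was detected on no PLX4720 array and was at least 2.04-fold lower, a call lost on dropping any 1 of vehicle replicates 2 and 3 and PLX4720 replicates 1 and 2. The clock element CACGTG, which holds ACGTG, was found in 3 of 11 members with a RefSeq window, against 8.09% of all genes. It was found in 1 of 4 called members, which is printed because it was the largest rise of the list. The times of day at which the tumours were taken are not given in the sources used here.
Per1 (chr11:69098753-69098818, plus strand, match at -166 from the start): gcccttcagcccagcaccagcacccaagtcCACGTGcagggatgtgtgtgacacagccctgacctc

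Of 22 genes induced by glucocorticoids 5 rose, Per1 among them, and 1 fell, at a median of 0.67. Tsc22d3, the leucine zipper protein GILZ, read 8.53, 8.94 and 8.39 against 11.93, 11.37 and 10.84 (rose by 2.76, SE 0.39, adjusted p = 0.00248), while its other probes gave -0.41 and 0.58. Fkbp5, a co-chaperone of the glucocorticoid receptor, read 6.64, 7.20 and 6.48 against 9.17, 8.31 and 8.84 (2.0, adjusted p = 0.0103). Sult1a1, a phenol sulfotransferase, read 6.14, 5.42 and 5.02 against 8.98, 8.33 and 7.76 (2.83, adjusted p = 0.00626). All arrays of PLX4720 lay above all vehicle arrays in these 3, and all were kept in all fits. Glul, glutamine synthetase, was at least 1.12-fold higher. Zbtb16 fell by 0.95, a call lost without any 1 vehicle array or PLX4720 replicate 1.

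Growth factors of the stroma split. Of 24, 5 rose and 3 fell. Igf1 read 7.37, 7.06 and 7.06 against 8.45, 8.08 and 8.68 (1.24, adjusted p = 0.00962, other probe 1.57), Igf2 was detected on 0 vehicle and 3 PLX4720 arrays (at least 2.25-fold higher, adjusted p = 0.00626), and Ghr, the growth hormone receptor, rose by 2.07. Cxcl12, described above, was another of the rises. Igf1r, the receptor of both factors, fell from 6.97, 7.18 and 6.47 to 5.97, 5.50 and 5.53 (1.20 lower, adjusted p = 0.0125). Its other probes gave -0.26 and -0.02. Igfbp3, which binds both factors, is from a separate list of 9 IGF binding proteins, of which 1 fell. It read 11.76, 11.83 and 11.88 against 10.17, 9.66 and 10.24 (1.80 lower, adjusted p = 0.00127), with -4.10 on its other probe. Pdgfa, a mitogen of fibroblasts and pericytes, read 9.75, 10.12 and 9.93 against 8.76, 8.28 and 8.42 (fell by 1.45, adjusted p = 0.00407). Hbegf, a ligand of the EGF receptor, fell by 1.38. Igf2, Igfbp3 and Pdgfa were kept in all fits. Without vehicle replicate 2 the list gave 2 rises and 1 fall, and without vehicle replicate 3 it gave 3 and 2.

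**Figure D5:**
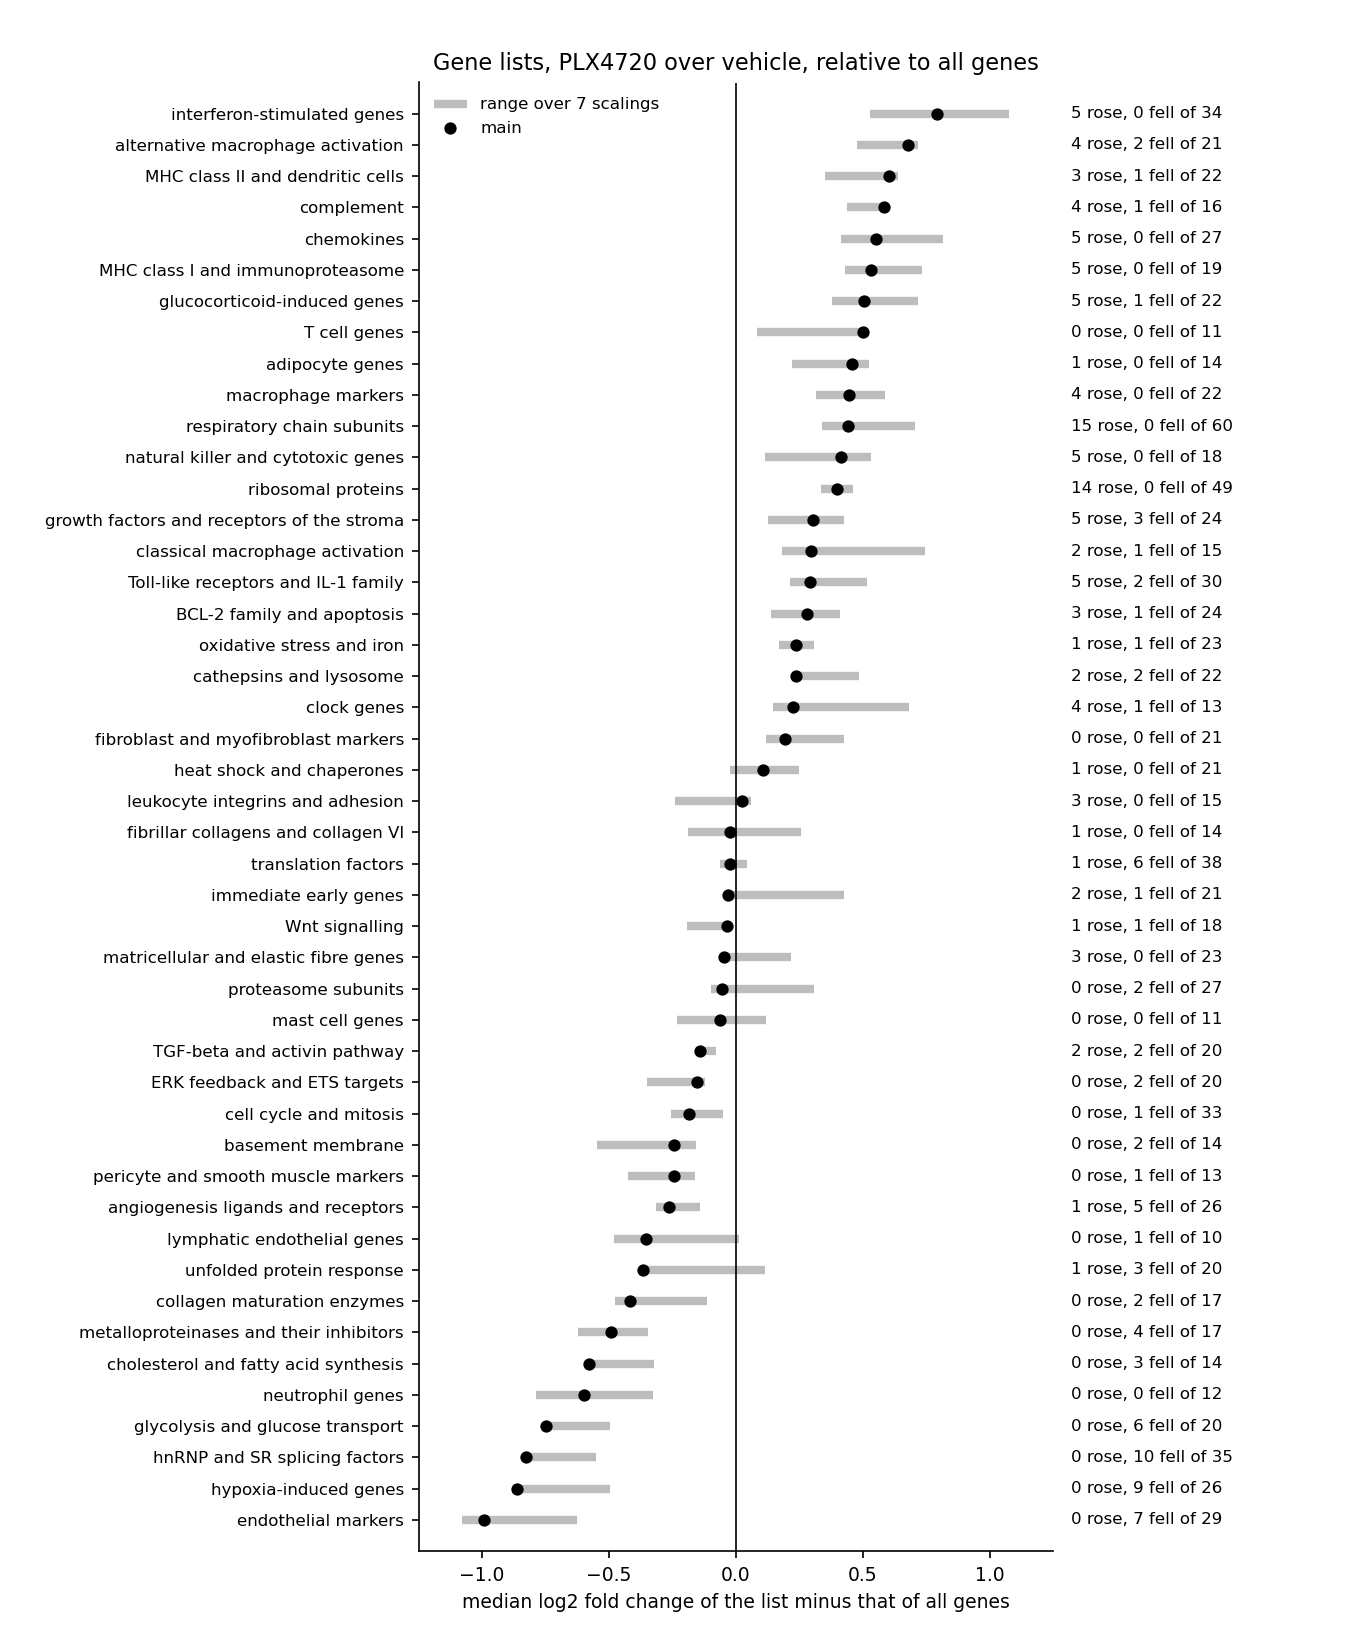
Median log2 fold change of each gene list of at least 10 tested genes minus the median of all genes (horizontal axis), without the skeletal muscle list (2.14), the genes the study follows and the housekeeping genes, with its range over the scalings as a line and the counts of genes that rose and fell beside it. Endothelial (-0.99), hypoxia (-0.86) and splicing factor (-0.83) lists lie lowest, and of the lists drawn the interferon-stimulated one (0.79) highest.

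Of 49 ribosomal protein genes 14 rose, 0 fell and 42 had a higher mean, at a median of 0.57 (28.6% rose). Rps24 read 13.13, 12.84 and 12.84 against 14.14, 14.25 and 14.15 and rose by 1.24 (SE 0.20, adjusted p = 0.00441). Ribosomal proteins have many near-identical pseudogenes, so a probe's signal cannot be assigned to 1 locus with certainty. Dropping vehicle replicate 2 left 1 rise, vehicle replicate 3 left 4, PLX4720 replicate 2 left 8, and PLX4720 replicate 1 or vehicle replicate 1 left 9. Respiratory chain subunits gave 15 rises and 0 falls among 60, at a median of 0.61, but 1 rise without PLX4720 replicate 1, vehicle replicate 2 or vehicle replicate 3. The list mean read 9.47, 9.16 and 9.28 with vehicle and 10.14, 9.61 and 9.93 with PLX4720. It was highest on PLX4720 replicate 1, where muscle signal was highest too. With the muscle signal as a covariate 1 respiratory chain rise was called, while the rises among all genes went from 610 to 167. The part of muscle tissue in these rises was not tested beyond these fits.

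Transcripts made by the mitochondrial genome itself were called without PLX4720 replicate 1 as well. ND4 read 13.12, 12.83 and 12.96 against 15.08, 14.36 and 14.39 (1.64, SE 0.26, adjusted p = 0.0046), and ND1, like ND4 a subunit of complex I, read 12.56, 12.37 and 12.56 against 14.23, 14.06 and 13.76 (1.52, adjusted p = 0.00269). ATP6 of the ATP synthase read 11.59, 10.67 and 11.40 against 12.89, 13.19 and 12.76 (1.73, adjusted p = 0.0046). With CYTB (1.57) and COX2 (1.33), these 5 genes were kept in all fits, and each had 1 detected probe. All PLX4720 arrays lay above all vehicle arrays in each of them. These 5 genes were chosen after their values were seen, and the part of muscle tissue in their rise was not tested beyond the fits named above.

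Of 35 hnRNP and SR proteins 10 fell, 0 rose and 28 had a lower mean, at a median of -0.66, although the absolute median was 0.12 under all-probe median scaling. Hnrnpk read 12.76, 13.56 and 13.25 with vehicle and 6.04, 11.26 and 8.06 with PLX4720, a fall of 4.73 with -1.27, -0.66 and -1.75 on its other probes. Hnrnph1 read 12.90, 13.26 and 13.32 against 11.20, 12.38 and 10.31, a fall of 1.86, and its other probes ranged from -3.47 to -0.59. Srsf5 fell by 2.39 (SE 0.45, adjusted p = 0.00848) and was kept in all fits. In 23 of the 35 genes several probes were detected, and all went 1 way in 9. The 10 falls were 2 without vehicle replicate 2 and 3 without vehicle replicate 3. Of 38 translation factors 6 fell and 1 rose, at a median of 0.14. Eef2, the factor that moves the ribosome along the message, read 13.26, 14.11 and 13.19 against 6.69, 11.39 and 8.05, a fall of 4.81 (SE 0.86, adjusted p = 0.00692), and its other probes gave -2.19 and -3.96. Eif5a fell by 3.53 (other probes -3.26 and -0.29) and Eif4b by 2.59 (other probe 0.73). In Eef2, Hnrnpk and Eif5a replicate 1 was lowest and replicate 2 highest among the PLX4720 arrays. Without vehicle replicate 2 or vehicle replicate 3, 2 translation factors fell. Cell cycle genes did not move as a list (1 of 33, Tyms, fell, median -0.02).

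Other genes with the largest changes on which all probes had the same sign filled out the picture. Among the rises were Slc10a6, a transporter of sulfated steroids (5.09, 5.14 and 5.24 against 7.42, 8.14 and 7.19, at least 3.14-fold higher, other probe 1.10), and Angptl7, a secreted angiopoietin-like protein (4.99, 5.11 and 4.74 against 8.19, 6.94 and 6.66, at least 2.52-fold higher, other probe 0.39), which were both detected on 0 vehicle arrays. Cyp27a1, the sterol 27-hydroxylase, rose by 1.82 with 1.53 and 1.87 on its other probes, and Apoc1, an apolipoprotein, rose by 2.44 with 1.47 on the other. Cp, ceruloplasmin, rose by 1.92, and Armc6 and Fbxo31, detected on no vehicle array, were at least 2.32- and 2.44-fold higher. Among the falls were Rbm10, an RNA-binding protein (8.89, 9.80 and 9.01 against 5.35, 7.05 and 5.88), with -3.14 and -3.30 on its probes, and Actn4, an actinin (11.75, 11.72 and 12.19 against 5.13, 8.81 and 10.52), with -3.74, -4.88 and -1.38. Mgat4b, Sorbs2 and Dbn1 fell (-4.15, -3.94 and -3.09) with weaker second probes of -1.22, -0.40 and -0.60. Smarca5-ps, which fell by 3.33, is a pseudogene that its parent gene may share signal with, and Hnrnpa0 (-3.16) had a second probe at -0.03.

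Single-probe genes that were kept in all fits added to this. Tinagl1, a matrix protein (7.77, 8.35 and 8.82 against 5.44, 5.97 and 5.94, fell by 2.53), Rara, a retinoic acid receptor (fell by 2.31), and Foxc1, a transcription factor (11.99, 12.48 and 12.07 against 10.57, 10.62 and 10.31, fell by 1.68), were lower. So were Sox2, a transcription factor of neural crest and stem cells (9.14, 9.36 and 9.23 against 6.74, 7.82 and 7.90), and Slc45a2, a transporter of melanosomes (6.32, 7.25 and 6.53 against 5.25, 5.48 and 5.22), at -1.76 and -1.39, with the human share of either signal not measured. Efna3, an ephrin, was detected on no PLX4720 array and was at least 2.96-fold lower. Higher were Hpgd, which breaks down prostaglandins (detected on 0 vehicle and 3 PLX4720 arrays, at least 2.96-fold, adjusted p = 0.001), Cst3, cystatin C (13.01, 12.49 and 12.21 against 14.52, 14.09 and 13.72, rose by 1.54), and Cyp1b1, a cytochrome P450 of stroma (7.14, 7.59 and 6.98 against 8.96, 10.32 and 8.57, rose by 2.05).

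Of 16 genes that the study itself follows, 3 fell (Cspg4, Mmp10 and Pecam1), Il18 rose and 12 did not pass. Among the latter, Tgfb1 read 9.47, 9.51 and 9.73 against 6.05, 8.39 and 10.18 (adjusted p = 0.228) and Acta2, smooth muscle actin, 12.22, 12.68 and 12.28 against 11.29, 12.53 and 12.27 (adjusted p = 0.547). Cd14, a co-receptor for endotoxin, read 10.29, 10.40 and 10.16 against 11.14, 10.83 and 10.91, without overlap but at an adjusted p of 0.117. Il1b, Mmp9, Mmp3, Lox and Irf2 differed by 0.46, -0.83, -0.32, -0.17 and 0.11 and overlapped between the groups. Il6ra was higher on every PLX4720 array (0.66, adjusted p = 0.081) with other probes at -1.26 and 0.24.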

How the data were processed

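RNA extracted from frozen tumours was amplified to biotin-labelled cRNA and hybridised to Illumina MouseWG-6 v2.0 bead arrays (vehicle, PLX4720 and bevacizumab with 3 each, COMBO with 2). The authors deposited raw signal intensities of 45281 probes from GenomeStudio 2011.01, a deposited detection p-value of each probe, and cubic spline intensities, which served as an alternative. Here neqc (limma 3.58.1, R 4.3.3, offset 16) removed background from the raw intensities, taking negative controls from the detection p-values, applied quantile normalization and returned log2 values, so the log2 scale is computed here from the deposited intensities. A probe entered when its detection p was under 0.05 on any of the 6 arrays (18598 probes, 15644 of them with 1 symbol). Of all probes 34885 had 1 symbol, 18 several and 10378 none, and 34807 matched the RefSeq gene table by identifier. The brightest probe on average stood for its gene. A limma model with a mean per group over all 11 arrays (7 residual and 4.82 prior degrees of freedom) gave PLX4720 minus vehicle, adjusted by Benjamini-Hochberg over 10593 genes. Where no array of a group detected a gene, the fold is given as "at least", computed against the lowest signal detected on each array of that group. Precision is limited by the number of arrays.

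The members and gene lists were chosen with earlier results of these data known, so list counts and medians are descriptions. Genes to name were drawn as the 12 largest rises and 12 largest falls with every probe in 1 direction and groups that do not overlap. Added to them were the 4 largest of each list, the genes the study follows, and the 6 genes whose probes lie farthest apart. Not all of them appear in the text, so the genes named from a list do not show its whole spread. Further genes were chosen after their values were seen. Promoter stretches are windows around RefSeq transcript starts (GRCm38.p6), and a gene counted when any of its windows matched. The model fit was tested on simulated data. Alternatives were other scalings, filters, probe rules, models and thresholds, the omission of each array, and a muscle covariate.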

Additional observations from a re-analysis of the deposited data

Results flagged for a closer look

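Probes without a single gene symbol stood outside the gene-level comparison, and among the 2954 of them that were detected, 177 rose and 377 fell with PLX4720 at an adjusted p under 0.05 in limma. These probes were fitted and adjusted apart from the genes, and the report does not use them otherwise. Their counts are to be read beside those of the genes, where 610 of 10593 rose (5.76%) and 836 fell (7.89%). Their transcripts are not named here, and the cause was not tested.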

How the results depend on the processing

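The total of 1446 calls (610 rises, 836 falls) kept its order of size under most settings but not its level. Scaling on the median of detected probes gave 2835 calls (1529 rises, 1306 falls), scaling on the median of all probes, chosen after seeing the data, gave 5018 (4808 and 210), and housekeeping scaling gave 1392 rises and 506 falls. Genes with 1 detected probe held 803 calls (380 and 423), a fit of only the 6 arrays gave 602 (216 and 386), the muscle covariate gave 612 (167 and 445), a test against a fold of 1.5 gave 127 (20 and 107), and array weights gave 359 rises. An adjusted p under 0.01 left 301 calls and one under 0.1 gave 2506. The methods' threshold, at 1181 genes, gave 681 with cubic spline values, 429 without background correction, 670 among genes with 1 probe and 3924 with all-probe median scaling. The count of called genes whose probes all had the same sign, 289, became 553 with median scaling, 1497 with all-probe median scaling, 172 with a stricter detection filter, 131 in the fit of 6 arrays, 141 with the muscle covariate and 34 in the test against a fold. The cause of these shifts was not tested, apart from those that test fewer genes or arrays by construction.

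Leaving out 1 array gave 328 (vehicle replicate 2) to 1510 (bevacizumab replicate 1) calls, 83 to 662 rises, 245 to 893 falls, 870 to 1398 genes at the methods' threshold, 76 to 317 genes with agreeing probes and a muscle difference of 0.663 (without PLX4720 replicate 1) to 3.52 (without PLX4720 replicate 2). Same-numbered arrays deviated together with correlations of 0.053, 0.0066 and 0.013, and 2 of the 3 vehicle arrays correlated best with their own number. The labels state no pairing, and 3 arrays in a group are too few for these correlations to settle it. With a replicate block there were 1200 calls (477 and 723), 1206 at the methods' threshold and 249 with agreeing probes.

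The muscle difference reversed to -0.242 over the genes detected on all 6 arrays. With the mean of probes C4b (-0.0066), Ltbp3 (-0.12) and Tpm2 (0.86) changed sign. Ctsa, which fell by 2.83 on the probe used, was 0.67 with cubic spline values, 1.23 with median scaling, 1.34 with housekeeping scaling, 0.75 with cyclic loess, 0.87 in the 6 arrays and between -3.54 and 1.02 in the fits that left out an array, where 0.73 to 1.02 lie near the 0.89 of another of its probes. Ttn was 1.90 without background correction, 2.29 with median scaling, 2.40 with housekeeping scaling, 2.10 with cyclic loess, 0.54 with the mean of probes and between -1.33 and 4.10 in the fits that left out an array. Of the settings tried on called genes drawn for naming, not all of which appear in the text, 4197 kept direction and call, 1060 kept the direction only and 27 reversed.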

Other observations

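The COMBO and bevacizumab arrays share no sample with the PLX4720 and vehicle arrays and give a further reading of the same drug, on top of bevacizumab. Of the 610 genes that rose with PLX4720, 441 (72.3%) were higher with COMBO than with bevacizumab, at a median difference of 0.27 on the log2 scale, and of the 836 that fell, 613 were lower, at a median of -0.23. Of all 10593 genes, 52.3% were higher. The other 169 rises were lower and the other 223 falls were higher with COMBO. Dusp4 (0.17), Etv1 (0.67) and Hnrnpk (0.51), which fell with PLX4720, were higher with COMBO than with bevacizumab. Nr1d2 (-0.06), which rose, was not higher. Arg1 (-1.77), Slc2a1 (-1.36) and Dbp (1.19) kept their direction. These are descriptions of 2 and 3 arrays, with no test, and COMBO replicate 1 and bevacizumab replicate 2 held muscle signal as well, with list means of 9.06 and 8.46.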
